A study of Mus musculus with 14 samples.

Results

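The response of marrow endothelium to granulocyte colony-stimulating factor (G-CSF) was measured in cells sorted as CD31+ from the bone marrow stroma of mice. The comparison uses 8 of the 14 arrays of the study: 4 of CD31+ cells from G-CSF treated mice and 4 of CD31+ cells from untreated mice, and all genes measured. The other 6 arrays, 3 untreated and 3 G-CSF, are of osteoblasts that carry a GFP reporter (pOBcol2.3-GFP, GFP under an osteoblast collagen promoter). The 3 untreated osteoblast arrays served to separate genes of vessel cells from genes of other lineages. All mice were wild type C57BL/6J animals of 6 to 8 weeks that carried the pOBcol2.3-GFP reporter. G-CSF was given under the skin at 250 ug/kg for 5 days, and the text on the untreated samples speaks of vehicle and of 7 days. Stromal cells were freed with collagenase. The CD31+ gate took cells without CD45, Ter119 or GFP, and the osteoblast gate took GFP+ cells without CD45, Ter119 or CD31. The labels number the replicates and do not say whether each was a separate mouse or a pool, so the p-values measure the spread between these samples, which may be technical.

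The vessels of the marrow are thin-walled sinusoids, through which new blood cells leave, and arterioles that feed them. Their endothelial cells, with the stromal cells around them, supply factors that hold blood stem cells in the marrow, among them the chemokine Cxcl12 and the adhesion molecule Vcam1. G-CSF binds the receptor Csf3r, signals through Stat3, drives neutrophil production, and moves stem cells into the blood.

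Each value is the log2 of a probe set's deposited intensity plus 16, so that 1 unit is a 2-fold difference in that sum and the change of a dim gene is understated. Changes are G-CSF minus untreated on that scale, given with the standard error (SE) of the limma model, which had 4 arrays a group in this comparison. A gene rose or fell where its p-value, adjusted over all 13453 genes by Benjamini-Hochberg, was under 0.05. Values by array are in the order of replicates 1 to 4.

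The endothelial markers were high in all 8 CD31+ arrays. Over 30 genes of endothelial identity the mean log2 level ran from 12.43 to 12.91 in the CD31+ arrays and from 8.75 to 9.62 in the untreated osteoblast arrays. The sort also held RNA of other cells. Col1a1, the main collagen of bone, had a mean of 15.33 in the untreated CD31+ arrays and 15.56 in the untreated osteoblast arrays. Ptprc, which encodes CD45, read 10.47, 10.54, 10.31 and 9.10 without and 11.58, 10.97, 11.72 and 11.83 with G-CSF (change 1.42, SE 0.57, limma adjusted p = 0.269). In these bulk samples, fewer cells of a type and less RNA per cell cannot be told apart.

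Some arrays stood apart. The skeletal muscle list had a mean level of 12.24 in untreated CD31+ replicate 1 and of 6.99 to 8.99 in the other 7 CD31+ arrays. The erythroid list had a mean level of 9.14 in G-CSF replicate 4 and of 6.61 to 6.86 in the other G-CSF arrays. Sinusoidal genes had a mean of 12.25 in G-CSF replicate 3 and of 10.91 to 11.29 in the others of that group. Among the untreated osteoblast arrays, replicate 2 had a neutrophil list mean of 11.58 against 9.12 and 8.91, and a B lineage mean of 9.95 against 7.13 and 7.33. The ratio of 3' to 5' signal of the Gapdh control probe sets, a measure of RNA integrity, was 20.9 in untreated CD31+ replicate 1 and ran from 8.95 to 13.5 in the other 7. Correlation between CD31+ arrays ran from 0.915 to 0.973.

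After G-CSF, 61 genes rose, which is 0.453% of the genes tested, and 154 fell, which is 1.14%. The 4 G-CSF arrays lay wholly above the 4 untreated arrays for 60 of the 61 genes that rose and for 625 of all genes (4.65%). They lay wholly below for 132 of the 154 that fell and for 756 of all genes (5.62%). The median change was 1.57 among the genes that rose, -1.59 among those that fell and -0.05 over all genes. Same-numbered replicates deviated together, and with the replicate number as a block 139 genes rose and 521 fell. These counts over all 13453 genes are the reference for the block counts of classes and lists below. Of the original calls, 60 of 61 and 152 of 154 passed with the block too.

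The counts depended on single arrays. Leaving out untreated replicate 1, 2, 3 or 4 gave 15, 65, 14 and 13 genes that rose and 16, 323, 17 and 15 that fell. Leaving out G-CSF replicate 1, 2, 3 or 4 gave 34, 23, 38 and 32 that rose and 167, 34, 80 and 142 that fell. With both CD31+ arrays of number 1 left out, 13 rose and 23 fell. The scale mattered too. The median log2 level of an array ran from 6.785 to 6.842 in the untreated CD31+ arrays. In the G-CSF arrays it ran from 6.565 to 6.714, all lower, and the cause was not tested. Centring each array on its median instead of keeping the deposited scale moved the median change of all genes to 0.13 and gave 81 genes that rose and 54 that fell, so that 60% of the calls were rises in place of 28.4%.

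The calls that held without any 1 of the 8 CD31+ arrays numbered 27, of which 13 rose and 14 fell, and all 27 also passed with the replicate block, with median centring and with quantile normalisation. They were singled out after their values were seen. The 13 were Stfa3, Ifitm1, Saa3, Stfa2l1, Zbtb16, Prok2, Asprv1, Cd244a, Map3k6, Tgm1, Hhipl1, Spint1 and Myd88. The 14 were Adipoq, Acaa1b, Ndnf, Dpep1, Amy1, Rspo2, Susd4, Islr, Vcam1, Mtarc1, Tcea3, Fgf13, Wdr86 and Lbh.

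**Figure D1:**
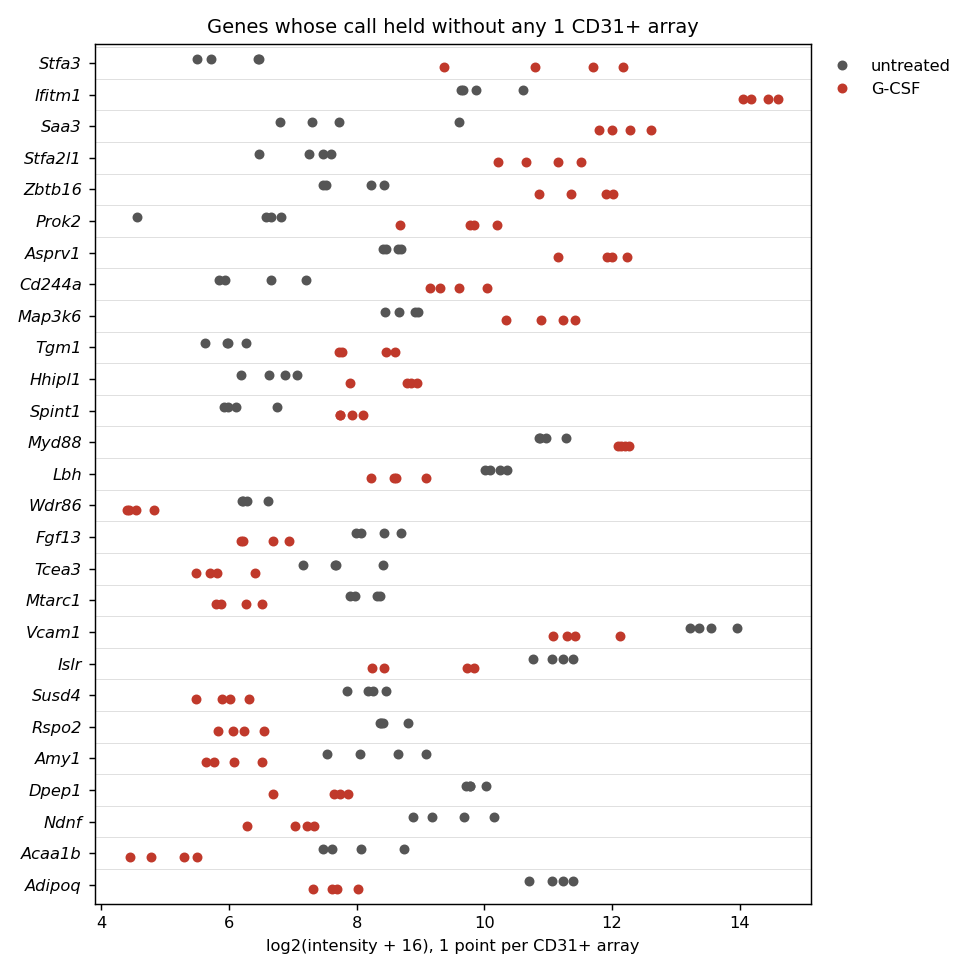
Log2(intensity + 16) of the 27 genes whose call held without any 1 CD31+ array, 1 point per array, grey for the 4 untreated and red for the 4 G-CSF arrays. In each gene the red and grey points do not overlap, with a gap of over 4 units between the group means for Stfa3, Ifitm1 and Saa3.

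Genes of vessel cells were separated from others by their level in the untreated osteoblast arrays. A gene was put in the vessel class where the mean of the 8 CD31+ arrays was at least 2 log2 units above that of the 3 untreated osteoblast arrays with adjusted p under 0.05, and in the non-vessel class where it was at least 2 below. Genes within 1 unit were called level and the rest intermediate. Just inside and outside the upper limit lay Mgat4a, 2.01 above, and Gm11716, 2.00 above when rounded; at the lower limit lay D3Ertd751e, just past it, and S1pr3 at -1.99. Since a gene's own change enters the mean of the 8 arrays, the classes were also made from the 4 untreated CD31+ arrays, whose error is shared with the change.

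Of 532 vessel class genes, 9 rose (1.69%, against 0.453% of all genes) and 0 fell (against 1.14%) in the limma test. Their median change was 0.17, against -0.05 over all genes. At an unadjusted p under 0.05 there were 91 vessel genes in either direction, against 1765 of all 13453 genes. Of the 532 changes 364 were positive (68.4%), against 5729 of the 13453 over all genes. The replicate block gave 32 that rose and 3 that fell, namely Dnase1l3, Cyp4b1 and Hs3st1, against 139 and 521 of all 13453 genes. Of the 493 non-vessel genes, 0 rose and 73 fell (14.8%, against 1.14% of all genes), and their median change was -0.90. Of the 493 changes 459 were negative (93.1%), against 7724 of the 13453 over all genes. The block gave 204 that fell, against 521 of all 13453 genes. The level class of 10162 genes had 32 that rose and 28 that fell, and the 2266 intermediate genes had 20 and 53. With the classes from untreated CD31+ arrays alone, 1 of 495 vessel genes rose and 1 fell, and 1 of 322 non-vessel genes rose and 42 fell. By that rule 298 of the 495 vessel changes were positive, with a median of 0.09. Of the 322 non-vessel changes 275 were negative, with a median of -0.69. With untreated osteoblast replicate 2 left out of the class rule, 15 vessel genes rose. Leaving out untreated CD31+ replicate 1, 3 or 4 gave 4 vessel genes that rose in each case, Stfa3, Stfa2l1, Prok2 and Asprv1. For non-vessel genes that fell, leaving out untreated replicates 1 to 4 in turn gave 9, 129, 10 and 9, and leaving out G-CSF replicate 2 or 3 gave 21 and 31.

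**Figure D2:**
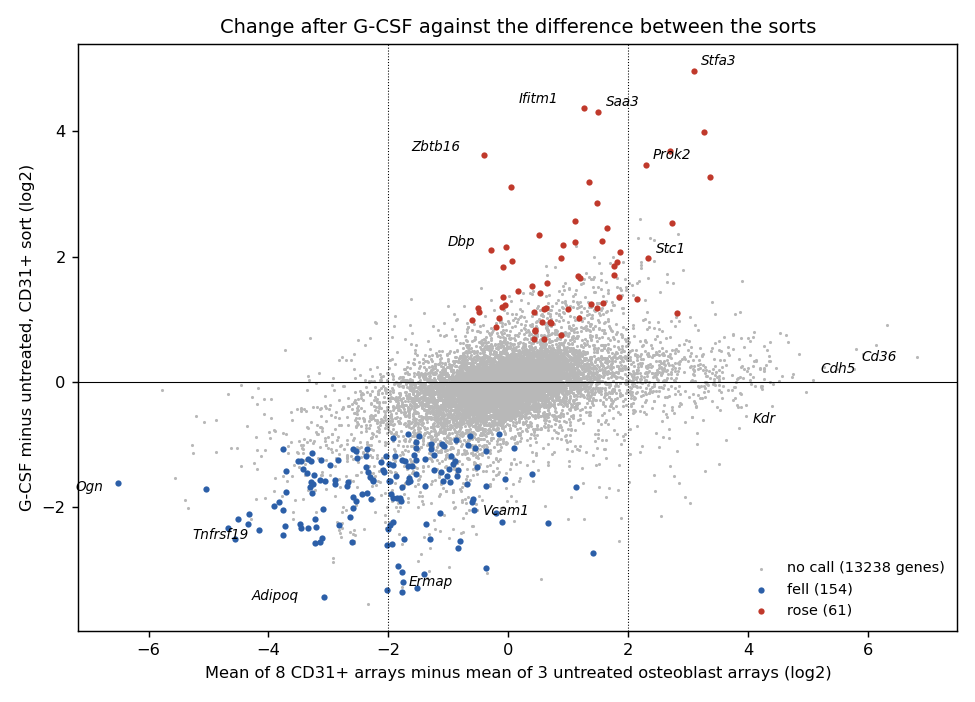
Change after G-CSF in the CD31+ sort (y axis, log2) against the mean of the 8 CD31+ arrays minus that of the 3 untreated osteoblast arrays (x axis, log2), 1 point per gene, with dotted lines at the class limits of -2 and 2. Red points (61 genes) rose and blue points (154) fell; each gene's own change enters the x axis, which moves risers right and fallers left, and by untreated CD31+ arrays alone Oit3 is a vessel gene that fell and Zbtb16 a non-vessel gene that rose.

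Endothelial identity genes as a group had no call. None of the 30 passed the limma test, and 2 had an unadjusted p under 0.05, against 1765 of all 13453 genes. Their median change was 0.04 and the changes ran from -0.47 to 0.77. Cdh5, the cadherin of endothelial junctions, read 13.79, 14.08, 13.86 and 13.75 without and 13.81, 14.12, 13.90 and 13.75 with G-CSF (change 0.03, SE 0.22, adjusted p = 0.98). The groups overlapped fully. Pecam1, which encodes the CD31 protein used for the sort, changed by 0.43 (SE 0.28, adjusted p = 0.616). Kdr, the main VEGF receptor, changed by -0.36 (SE 0.21, adjusted p = 0.533), although its 4 G-CSF arrays, from 13.60 to 13.73, all lay below the untreated ones, from 13.81 to 14.21. Tek, the angiopoietin receptor, changed by 0.04 and Vwf, the platelet-binding factor of vessel walls, by -0.17. The largest rise of the list was that of Sox7, an endothelial transcription factor, at 0.77 (SE 0.33, adjusted p = 0.312; 0.0436 with the replicate block).

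Lists of endothelial function had few calls as well. Beside the counts at an unadjusted p under 0.05 given here, 1765 of all 13453 genes were at that level. No member was called among 20 arterial genes (median 0.01, 2 at unadjusted p under 0.05), 15 junction genes (median 0.03, 1 at that level), 18 Notch genes (median -0.08, 0 at that level), 16 basement membrane genes (median 0.04, 3) and 15 genes of fatty acid uptake (median -0.20, 2). Of 25 VEGF and angiogenesis genes 1 fell, against 1.14% of all genes. This was Thbs1, an inhibitor of angiogenesis, with -1.90 (SE 0.42, limma adjusted p = 0.0399). Its adjusted p was up to 0.142 without any 1 array other than untreated replicate 2 or G-CSF replicate 1. Its 4 G-CSF values, 8.66, 6.96, 7.78 and 7.99, lay below the untreated 9.71, 8.92, 10.48 and 9.89. Of 37 cell cycle genes and of 22 immediate early genes, which respond to handling stress, none was called, and none had an unadjusted p under 0.05. Their median changes were 0.07 and 0.09. The signs of the small medians of the VEGF, Notch, fatty acid and activation lists turned under median centring or quantile normalisation. Those of the VEGF, Notch, activation, identity, arterial, junction and basement membrane lists turned when some single arrays were left out. Over all 13453 genes the replicate block gave 139 that rose and 521 that fell. With the block, Sox7 of the identity list rose, as did Col18a1 of the basement membrane (1.29) and Bst1 of the activation list (1.82), and Nrp2 and Thbs1 of the VEGF list (-1.43 and -1.90), Vldlr of fatty acid uptake (-1.26), Sparc of the basement membrane (-0.53) and Vcam1 of the activation list fell.

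Among 16 sinusoidal and venous genes 1 fell, Vcam1, against 1.14% of all genes, and the median change was -0.34. Stab2, a scavenger receptor of sinusoids, read 13.09, 13.38, 13.76 and 13.66 without and 11.62, 12.01, 14.04 and 11.79 with G-CSF (change -1.11, SE 0.51, adjusted p = 0.367). Replicates 1, 2 and 4 of the G-CSF group were below all untreated arrays, and replicate 3 was above them. The mannose receptor Mrc1, the chemokine receptor Ackr1 and the membrane protein Gpm6a had changes of -0.82, -0.93 and -1.31 (adjusted p = 0.487, 0.41 and 0.241). For Mrc1, G-CSF replicate 3 read 12.80 and the other 3 read 10.37 to 10.69. Without G-CSF replicate 3, Gpm6a fell (change -1.89, limma adjusted p = 0.0394), as did Mrc1 (-1.39, limma adjusted p = 0.0431), and the median of the list was -0.59. That array was singled out after its high values for this list were seen. Leaving it out was bound to make the mean change of the list more negative, so these calls are no test of a fall. Outside the list and singled out after their values were seen, Dnase1l3, a secreted nuclease, and Exoc3l2 also fell without that array (-2.01, adjusted p = 0.0113, and -1.38, adjusted p = 0.0467), and with all arrays they had adjusted p of 0.0921 and 0.143.

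Vcam1, by which blood cells attach to endothelium and stroma, fell. It read 13.36, 13.22, 13.55 and 13.95 in the untreated and 11.29, 11.41, 12.13 and 11.08 in the G-CSF arrays. The groups did not overlap, and the change was -2.04 (SE 0.24, adjusted p = 0.00106), with an adjusted p of at most 0.00663 when any 1 CD31+ array was left out. Vcam1 had a mean of 13.52 in the untreated CD31+ arrays and of 13.07 in the untreated osteoblast arrays, so it is in the level class and its source within the sort was not tested. In the osteoblast sort its change was -0.52 (adjusted p = 0.636), and the difference between the changes, -1.52, had an adjusted p of 0.537. The adhesion genes Icam1, Selp and Sele had no call, with changes of -0.21, 0.24 and -0.88 (limma adjusted p = 0.857, 0.888 and 0.286). Adhesion genes outside the lists were not surveyed.

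Oit3, a secreted zona pellucida domain protein, was 1 called gene that was high in untreated CD31+ cells, low in osteoblasts and fell. It read 7.43, 8.03, 8.41 and 8.29 without and 4.47, 4.61, 6.29 and 5.90 with G-CSF. No G-CSF array reached the lowest untreated array, and the change was -2.73 (SE 0.48, adjusted p = 0.0171). The untreated osteoblast mean was 5.27, so by untreated CD31+ arrays it is a vessel gene, while the mean over all CD31+ arrays puts it 1.41 above and in the intermediate class. Without untreated replicate 3 or 4 or G-CSF replicate 2 the call was lost, with an adjusted p of at most 0.0717.

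Of the 9 vessel class genes that rose, 3 are not in the neutrophil list or among the risers shared with osteoblasts. Stc1, the secreted glycoprotein stanniocalcin, read 7.43, 7.73, 8.33 and 8.36 without and 9.51, 9.45, 11.35 and 9.44 with G-CSF (change 1.97, SE 0.44, adjusted p = 0.0399). Ttll7, a tubulin polyglutamylase, read 8.88, 8.93, 8.59 and 8.77 without and 10.43, 10.45, 9.39 and 10.16 with it (change 1.32, SE 0.25, adjusted p = 0.02). Gpr146, a G protein-coupled receptor, read 10.62, 11.01, 10.98 and 11.10 without and 11.71, 12.20, 12.25 and 11.95 with it (change 1.1, SE 0.26, adjusted p = 0.0496). In none of these genes did the groups overlap. Gpr146 was the vessel gene that rose under both class rules, and its adjusted p was 0.0506 with the block; by untreated CD31+ arrays Stc1 and Ttll7 are intermediate. Each of these 3 calls was lost when some arrays were left out: Gpr146 was lost without any 1 of the 8 (adjusted p up to 0.173), Stc1 without any untreated array or G-CSF replicate 2 or 3 (up to 0.143), and Ttll7 without untreated replicate 1, 3 or 4 or G-CSF replicate 2 (up to 0.0869).

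The other 6 risers that the mean of all 8 CD31+ arrays puts in the vessel class were Stfa3, Stfa2l1, Wfdc17, Prok2, Asprv1 and Il1r2, and each was also called in the osteoblast sort. Their own rise enters that mean. In untreated CD31+ arrays Stfa3, Stfa2l1 and Prok2 were 0.61, 0.86 and 0.56 above untreated osteoblasts and thus level, and Wfdc17, Asprv1 and Il1r2 were 1.27, 1.74 and 1.46 above and thus intermediate, so these 6 were not shown to be vessel genes that rose. Stfa3 encodes a stefin, an inhibitor of cysteine proteases found in neutrophils. It read 6.46, 6.48, 5.50 and 5.72 without and 12.17, 9.37, 11.70 and 10.80 with G-CSF, a change of 4.97 (SE 0.61, adjusted p = 0.00118), and 4.86 in osteoblasts (adjusted p = 0.00858). Prok2, a secreted chemoattractant of neutrophils, read 6.81, 6.66, 6.58 and 4.56 without and 9.77, 8.68, 10.20 and 9.83 with it, a change of 3.47 (SE 0.48, adjusted p = 0.00226), and 3.90 in osteoblasts. Il1r2, a decoy receptor for interleukin 1, changed by 2.53 (SE 0.45, adjusted p = 0.0182; up to 0.0702 without untreated replicate 1, 3 or 4). The osteoblast comparison shares no array with this one, and the labels do not say whether the same mice gave both sorts. Both comparisons came from the same limma fit, with a common error variance per gene, so their calls were not independent.

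The neutrophil list as a whole had 26 measured genes, of which 4 rose (Stfa3, Prok2, Asprv1 and Il1r2) and none fell, against 0.453% of all genes that rose. The list was chosen with earlier results of these data known, so the count is descriptive and no test of the list. Its median change was 1.47, 25 of 26 changes were positive, and for 15 of the 26 the G-CSF arrays lay wholly above the untreated ones, against 4.65% of all genes. The mean level of the list was 10.98, 10.97, 10.75 and 10.18 in the untreated and 12.23, 11.61, 12.37 and 12.48 in the G-CSF arrays. Some abundant genes of the list did not share in it. Camp changed by 0.07, Ngp by 0.04 and S100a8 by -0.05, with levels from 13.04 to 15.68 in the CD31+ arrays. The granule genes Lcn2 and Mpo had positive changes, 0.96 and 0.59, that were not called. Of the 26 genes, 7 were in the vessel class, 12 intermediate, 7 level and none non-vessel, so the osteoblast level did not set this lineage apart from vessel genes. Csf3r, the G-CSF receptor and a neutrophil list gene, read 10.04, 9.99, 9.75 and 8.39 without and 10.99, 10.62, 11.65 and 11.55 with G-CSF (change 1.66, SE 0.54, adjusted p = 0.142). Ptprc moved with these genes, as given above, and its part in the result was not tested.

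The largest changes outside the vessel and non-vessel classes were those of Ifitm1 and Saa3. Ifitm1, an interferon-induced membrane protein, read 10.61, 9.66, 9.87 and 9.63 without and 14.60, 14.06, 14.17 and 14.45 with G-CSF. The gap between the groups was over 3 units, and the change was 4.37 (SE 0.27, adjusted p = 1.38e-06). Saa3, an acute phase apolipoprotein, read 9.61, 7.29, 7.72 and 6.80 without and 12.61, 11.79, 11.99 and 12.29 with it (change 4.32, SE 0.48, adjusted p = 0.00104). Both rose in osteoblasts too, Ifitm1 by 3.44 (adjusted p = 0.000258) and Saa3 by 3.22 (adjusted p = 0.0284). In the untreated sorts the mean level of Ifitm1 was 9.95 in CD31+ cells and 10.87 in osteoblasts, and that of Saa3 was 7.85 and 8.51. Myd88, the adaptor of Toll-like and interleukin 1 receptors, changed by 1.18, from 10.85 to 11.28 without and from 12.09 to 12.27 with G-CSF (SE 0.15, adjusted p = 0.0017).

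Genes of G-CSF receptor signalling and Stat3 had 26 measured members, of which 2 rose, Saa3 and Pim1, and none fell, against 0.453% of all genes that rose. This list, too, was chosen with earlier results known. The median change was 0.24 and 9 members had G-CSF arrays wholly above the untreated ones, against 4.65% of all genes. Pim1, a kinase induced by Stat signals, read 11.11, 11.49, 11.24 and 10.66 without and 12.26, 12.11, 12.10 and 12.53 with G-CSF (change 1.12, SE 0.24, adjusted p = 0.038), and lost its call without any 1 array other than untreated replicate 2 (up to 0.119). Stat3 itself read 11.49, 11.68, 11.61 and 11.37 against 11.99, 12.18, 12.12 and 12.13, a change of 0.57 without overlap that was not called (SE 0.17, adjusted p = 0.108; 0.0238 with the block). Socs3, the feedback inhibitor, changed by 0.07 (adjusted p = 0.976) and its groups overlapped. With the block 5 members rose, against 139 of all 13453 genes: Saa3, Pim1, Stat3, and the transcription regulators Bcl3 (0.86) and Cebpb (0.61). The acute phase list had 2 of 14 that rose, Saa3 and Hp, which encodes haptoglobin (1.23, adjusted p = 0.0399; up to 0.133 without any 1 array other than untreated replicate 2). Of 33 interferon genes 1 fell, against 1.14% of all genes. This was the chemokine Cxcl9, with -1.06 (limma adjusted p = 0.0496). Its adjusted p was up to 0.171 without any 1 array other than untreated replicate 2 or G-CSF replicate 1. The median of that list was -0.13, and 0.05 with median centring.

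**Figure D3:**
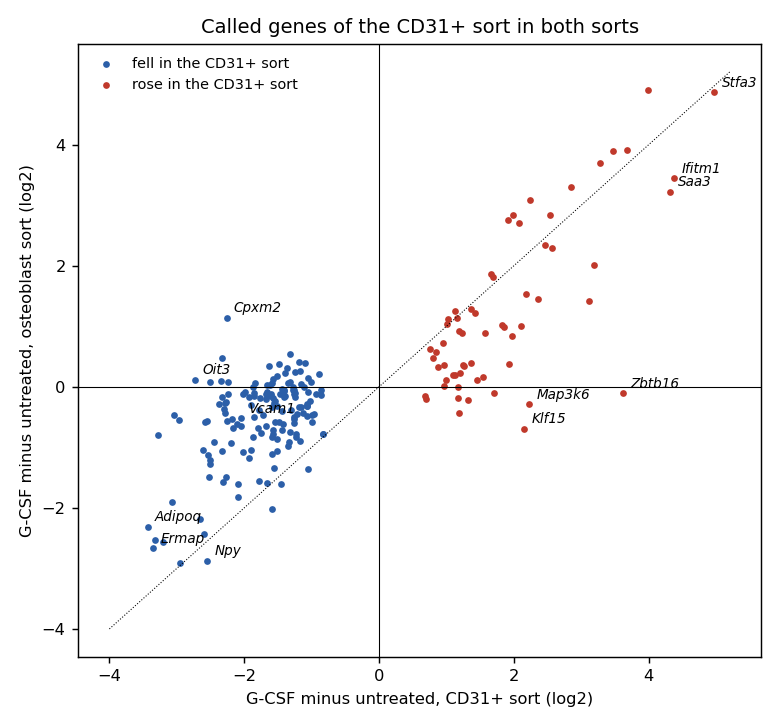
Change after G-CSF in the osteoblast sort (y axis, log2) against that in the CD31+ sort (x axis, log2) for the 215 called genes, red for the 61 that rose and blue for the 154 that fell, with a dotted line of equal change. Stfa3, Ifitm1 and Saa3 lie high in both sorts, while Zbtb16, Map3k6 and Klf15 lie near or below 0 in osteoblasts.

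Genes known to respond to glucocorticoids had the most calls among the lists of signalling. Of 17 measured, 4 rose and none fell, against 0.453% of all genes that rose, with a median change of 0.47. The list was chosen with earlier results of these data known, so the count is no test of the list. The number that rose was 1 without untreated replicate 1, 3 or 4 or G-CSF replicate 2, 2 without untreated replicate 2 or G-CSF replicate 4, 3 without G-CSF replicate 1 or 3, and 2 with quantile normalisation. Zbtb16, a zinc finger transcription factor, read 8.22, 8.43, 7.47 and 7.52 without and 11.36, 11.91, 10.86 and 12.01 with G-CSF. That is a change of 3.62 with no overlap (SE 0.43, adjusted p = 0.00106). Klf15, a transcription factor of metabolic genes, read 7.89, 8.10, 6.16 and 7.44 against 10.14, 9.47, 8.89 and 9.68 (change 2.15, SE 0.41, adjusted p = 0.0206). Fkbp5, a chaperone of the glucocorticoid receptor, read 10.11, 10.15, 10.52 and 10.74 against 11.45, 11.88, 12.44 and 11.90 (change 1.54, SE 0.35, adjusted p = 0.0404), and Tsc22d3, an anti-inflammatory leucine zipper protein, changed by 0.87 (SE 0.19, adjusted p = 0.0393). The list's other classic target Per1 changed by 0.57 with overlap (adjusted p = 0.436).

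By the mean of all 8 CD31+ arrays these genes were not set apart from other lineages by the osteoblast level. Zbtb16, Klf15, Fkbp5 and Tsc22d3 are all in the level class, but their own rise enters that class. Zbtb16 had a mean of 7.91 in untreated CD31+ cells and of 10.13 in untreated osteoblasts. By untreated CD31+ arrays alone, at -2.22 against untreated osteoblasts, it is a non-vessel gene. In osteoblasts Zbtb16 changed by -0.10, Klf15 by -0.69 and Fkbp5 by 0.16, none called. The difference between the sorts was 3.73 for Zbtb16 (SE 0.66, adjusted p = 0.208) and 2.84 for Klf15 (SE 0.63, adjusted p = 0.457), so neither was shown to differ. Of the calls, that of Zbtb16 held without any 1 CD31+ array; Klf15 lost it without untreated replicate 1, 3 or 4 or G-CSF replicate 2 (adjusted p up to 0.0702), Fkbp5 without any array other than G-CSF replicate 1 (up to 0.143) and Tsc22d3 without any other than G-CSF replicate 3 (up to 0.142).

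Map3k6, a kinase of the stress pathway, and Hhipl1, a protein related to the hedgehog inhibitor Hhip, were also among the 13 rises that held without any 1 array. Map3k6 read 8.97, 8.66, 8.45 and 8.91 without and 11.24, 11.42, 10.35 and 10.89 with G-CSF (change 2.23, SE 0.30, adjusted p = 0.00184). In osteoblasts it changed by -0.29, and the difference between the sorts was 2.52 (SE 0.46, adjusted p = 0.214; 2.96 and 0.0261 without untreated osteoblast replicate 3). Hhipl1 changed by 1.93 (SE 0.26, adjusted p = 0.00184) and by 0.38 in osteoblasts. For both genes the groups did not overlap and the lowest G-CSF array was replicate 3.

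Of 17 clock genes 1 rose, Dbp, and none fell, against 0.453% of all genes that rose, with a median change of 0.57. For 7 of them all G-CSF arrays lay above all untreated arrays, against 4.65% of all genes. Dbp, a transcription factor under direct clock control, read 9.54, 10.03, 9.19 and 9.82 without and 12.13, 10.94, 11.68 and 12.27 with G-CSF (change 2.11, SE 0.38, adjusted p = 0.0191), and lost its call without untreated replicate 1, 3 or 4 (up to 0.0766). Nr1d1, a clock repressor, changed by 1.50 (SE 0.39, adjusted p = 0.0668) and Cry2, a clock repressor of another family, by 0.89 (SE 0.21, adjusted p = 0.051; 0.0321 with the block). With the block 4 clock genes rose, Dbp, Cry2, Nr1d2 and Nfil3, against 139 of all 13453 genes. The time of day of the harvests is not given in the sources used here, and its part in this result was not tested.

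Of 24 hypoxia and glycolysis genes 1 rose, against 0.453% of all genes. This was Bnip3, a mitophagy receptor, which went from 10.17, 10.21, 9.86 and 9.87 to 11.29, 11.15, 10.35 and 11.17. Its change was 0.96 (SE 0.22, adjusted p = 0.0404), and the call was lost without any array other than untreated replicate 2 or G-CSF replicate 3 (up to 0.148). The median of the list was 0.47 and 8 members had G-CSF arrays wholly above the untreated ones, against 4.65% of all genes. The block gave 2 that rose, against 139 of all 13453 genes. These were Bnip3 and the glycolytic regulator Pfkfb3 (1.20, limma adjusted p = 0.00908 with the block and 0.0668 without). Quantile normalisation gave 0.

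Promoter sequences of genes named above are shown so that the motifs for these pathways can be read in place. Of the genes called, 52 of the 61 that rose and 115 of the 154 that fell matched the RefSeq promoter table of GRCm38.p6, which gives 250 bases before to 50 after each start. The motifs searched on both strands were the STAT site TTCNNNGAA, the E-box CACGTG bound by clock factors, the D-box TTATGNAA, a glucocorticoid receptor site of GNACA, 3 bases and TGTNC, and the GATA site GATAAG. Capitals mark the matches. Klf15 (chr6:90462326-90462625, plus strand) holds 3 E-boxes, the first bases of which lie at -228, -172 and -3 from the start, Fkbp5 (chr17:28486100-28486399, minus strand) 1 E-box at -169, Map3k6 (chr4:133240568-133240867, plus strand) 1 glucocorticoid site at -181, Il1r2 (chr1:40085843-40086142, plus strand) 1 STAT site at -111 and E-boxes at -238 and -195, and Myd88 (chr9:119339969-119340268, minus strand) 1 STAT site at -46. Klf1 (chr8:84901732-84902031, plus strand) and Kel (chr6:41704276-41704575, minus strand), erythroid genes that fell, hold 1 GATA site each, at -81 and -18.
Klf15: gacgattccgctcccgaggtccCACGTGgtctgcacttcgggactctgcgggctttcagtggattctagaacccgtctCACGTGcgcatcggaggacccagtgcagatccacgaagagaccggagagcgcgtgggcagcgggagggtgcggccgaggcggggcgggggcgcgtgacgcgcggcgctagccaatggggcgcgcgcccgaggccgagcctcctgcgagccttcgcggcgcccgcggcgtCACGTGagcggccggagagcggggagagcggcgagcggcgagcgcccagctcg
Fkbp5: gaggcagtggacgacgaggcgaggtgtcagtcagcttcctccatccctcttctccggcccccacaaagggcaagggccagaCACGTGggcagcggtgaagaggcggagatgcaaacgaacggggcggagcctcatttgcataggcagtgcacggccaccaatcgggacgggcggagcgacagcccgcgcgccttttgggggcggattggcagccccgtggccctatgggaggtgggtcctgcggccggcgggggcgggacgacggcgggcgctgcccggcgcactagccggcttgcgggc
Map3k6: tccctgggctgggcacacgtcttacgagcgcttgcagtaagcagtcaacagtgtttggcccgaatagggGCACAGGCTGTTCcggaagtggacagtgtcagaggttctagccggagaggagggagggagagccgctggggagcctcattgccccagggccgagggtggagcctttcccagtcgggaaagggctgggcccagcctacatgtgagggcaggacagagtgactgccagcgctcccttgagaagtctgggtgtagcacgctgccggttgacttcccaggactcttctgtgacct
Il1r2: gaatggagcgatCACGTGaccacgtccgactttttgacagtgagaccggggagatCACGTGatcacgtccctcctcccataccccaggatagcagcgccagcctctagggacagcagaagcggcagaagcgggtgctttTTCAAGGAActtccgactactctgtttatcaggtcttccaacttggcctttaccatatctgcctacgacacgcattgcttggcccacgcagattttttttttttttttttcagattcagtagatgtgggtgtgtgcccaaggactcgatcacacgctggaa
Myd88: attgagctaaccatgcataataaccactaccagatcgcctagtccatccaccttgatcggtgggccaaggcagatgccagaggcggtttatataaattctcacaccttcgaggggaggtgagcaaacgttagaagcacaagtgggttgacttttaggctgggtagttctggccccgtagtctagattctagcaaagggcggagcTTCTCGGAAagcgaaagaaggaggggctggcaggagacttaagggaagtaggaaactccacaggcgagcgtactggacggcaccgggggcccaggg
Klf1: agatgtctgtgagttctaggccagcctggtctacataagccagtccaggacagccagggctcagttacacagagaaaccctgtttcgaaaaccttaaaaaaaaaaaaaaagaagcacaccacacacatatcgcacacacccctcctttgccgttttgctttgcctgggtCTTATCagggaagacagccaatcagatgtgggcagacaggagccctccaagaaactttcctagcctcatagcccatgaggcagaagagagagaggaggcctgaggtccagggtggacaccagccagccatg
Kel: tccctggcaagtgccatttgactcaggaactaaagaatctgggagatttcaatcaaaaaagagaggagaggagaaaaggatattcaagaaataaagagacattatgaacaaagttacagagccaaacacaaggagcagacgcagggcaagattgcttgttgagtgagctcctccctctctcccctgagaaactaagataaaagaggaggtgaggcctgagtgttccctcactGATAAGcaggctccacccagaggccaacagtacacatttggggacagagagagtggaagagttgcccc

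A STAT site was in 15.4% of the 65 promoters of genes that rose, in 4.43% of the 158 promoters of genes that fell, in 6.78% of the promoters of all genes tested and in 8.3% of all 32851 promoters of the table. An E-box was in 20% of the promoters of genes that rose, 9.49% of those of genes that fell, 9.51% of those of genes tested and 7.15% of all. A GATA site was in 3.08%, 5.06%, 5.38% and 7.44% in the same order, a D-box in 3.08%, 1.27%, 1.95% and 3.38%, and a glucocorticoid site in 3.08%, 1.27%, 0.311% and 0.475%. The glucocorticoid share rests on 2 promoters, those of Map3k6 and Slc10a6. A match describes the letters of the window and says nothing of binding.

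Genes of the stromal cells around the vessels had more falls than rises, as did all genes tested (1.14% fell and 0.453% rose). Of 29 genes of reticular and adipogenic stroma, the cells that wrap sinusoids, 5 fell (Adipoq, Pdgfra, Chrdl1, Agt and Grem1) and 1 rose (Hp), the median change was -0.46, and for 10 of them the G-CSF arrays lay wholly below the untreated ones, against 5.62% of all genes. Adipoq, which encodes the hormone adiponectin and marks adipogenic stroma, read 11.23, 11.38, 11.05 and 10.70 without and 7.69, 7.32, 7.61 and 8.02 with G-CSF. The groups were more than 2 units apart and the change was -3.43 (SE 0.24, adjusted p = 3.34e-06). In osteoblasts Adipoq fell by 2.31 (adjusted p = 0.00409), and it was the 1 gene that fell in both sorts. Pdgfra, a receptor of mesenchymal cells, changed by -2.28 (SE 0.45, adjusted p = 0.0249), Chrdl1, a BMP inhibitor, by -2.17 (SE 0.37, adjusted p = 0.0151) and Agt, angiotensinogen, by -1.91 (SE 0.35, adjusted p = 0.0191). The stroma's main chemokine Cxcl12 read 14.32, 14.45, 14 and 14.26 without and 13.79, 14.06, 13.39 and 13.85 with G-CSF, where 1 G-CSF array overlapped the untreated ones (change -0.48, SE 0.17, adjusted p = 0.198; 0.0344 with the block). Lepr, the leptin receptor of these cells, changed by -0.96 (adjusted p = 0.289). Without any 1 CD31+ array, the list had between 1 and 4 that fell; Adipoq held throughout, Chrdl1 was lost without untreated replicate 1 or 4 (up to 0.064), Agt without untreated replicate 1, 3 or 4 (up to 0.0866), Pdgfra also without G-CSF replicate 2 or 3 (up to 0.104), and Grem1, at -1.13 (adjusted p = 0.0416), without any 1 array (up to 0.143).

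Few osteoblast and fibroblast genes were called in the CD31+ sort, and most of the osteoblast changes were negative. The mean level of the osteoblast list was 10.90, 9.49, 10.64 and 10.77 in the untreated and 10.13, 7.88, 8.84 and 10.09 in the G-CSF arrays, so the groups overlapped. Of 20 osteoblast genes 3 fell, Bambi, Alpl and Pth1r, against 1.14% of all genes. The median change was -1.42 and 18 of 20 changes were negative. The block gave 10 that fell, against 521 of all 13453 genes. Alpl, the phosphatase of mineralising cells, read 11.31, 10.78, 11.21 and 10.84 without and 10.11, 9.11, 8.56 and 10 with G-CSF (change -1.59, SE 0.33, adjusted p = 0.0321). Pth1r, the parathyroid hormone receptor, read 12.34, 9.94, 11.44 and 11.60 against 10.10, 7.75, 8.62 and 10.11, with overlap between the groups (change -2.19, SE 0.52, adjusted p = 0.0496). In osteoblasts themselves Alpl changed by -0.83 and Pth1r by -0.53, neither called, and the median of the list there was -0.02. Of 29 fibroblast and tendon genes 2 fell, Col3a1 (-1.67, SE 0.34, limma adjusted p = 0.0296) and Ogn (-1.62, SE 0.30, limma adjusted p = 0.0195), with a median of -0.77. With the block 11 of them fell, against the same 521 of all genes. Col1a1 changed by -1.37 (adjusted p = 0.242), with G-CSF replicate 2 at 11.77 and the other 7 arrays from 14.29 to 15.74. The osteoblast list had no gene that fell without untreated replicate 1, 3 or 4 or G-CSF replicate 2 or 3, and 7 without untreated replicate 2; the fibroblast list had none without untreated replicate 1, 3 or 4 or G-CSF replicate 2. Median centring left 0 osteoblast and 1 fibroblast gene that fell.

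Some secreted and surface signals to blood and bone cells fell. Beside the counts below, 1.14% of all genes tested fell, and with the block 521 of all 13453 fell. Of 19 niche factors 2 fell, Vcam1 and Il7, and none rose, with a median of -0.43 and 5 that fell with the block (also Cxcl12, Cdh2 and Mdk). Il7, the growth factor of early lymphocytes, read 7.02, 6.60, 6.93 and 6.67 without and 5.52, 5.29, 5.31 and 5.26 with G-CSF (change -1.46, SE 0.31, adjusted p = 0.0356), and changed by -1.60 in osteoblasts (adjusted p = 0.0947). Kitl, the stem cell factor, changed by 0.26 (adjusted p = 0.871). Of 20 Wnt genes 1 fell, Rspo3, a secreted enhancer of Wnt signals, with -1.42 (SE 0.29, adjusted p = 0.0307), and the median was -0.66; with the block Wnt4, Dkk3 and Wif1 fell too. Its relative Rspo2, which is not in that count, read 8.80, 8.39, 8.37 and 8.42 without and 6.07, 5.84, 6.56 and 6.23 with G-CSF (change -2.32, SE 0.29, adjusted p = 0.0015). Of 25 BMP and TGF-beta genes 2 fell, Grem1, a BMP inhibitor, and Bambi, a decoy receptor (-1.48, SE 0.32, adjusted p = 0.0361). Rspo3, Il7 and Grem1 are in the non-vessel class, and Bambi is level. Rspo2 held its call without any 1 array, whereas Il7 and Rspo3 lost theirs without any 1 array other than untreated replicate 2 or G-CSF replicate 1, with adjusted p up to 0.117 and 0.107, and Bambi lost it without untreated replicate 1, 3 or 4 or G-CSF replicate 2 or 3 (up to 0.128).

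Other genes that held their fall without any 1 array were mostly of the same class. Ndnf, a secreted neuron-derived growth factor, read 9.19, 8.88, 10.15 and 9.68 without and 7.03, 6.29, 7.23 and 7.33 with G-CSF (change -2.51, SE 0.33, adjusted p = 0.00182). Dpep1, a membrane dipeptidase, changed by -2.33 and Islr, a secreted protein that marks mesenchymal cells, by -2.05. Of the 14, Adipoq, Ndnf, Dpep1, Amy1, Rspo2, Islr, Mtarc1 and Wdr86 are non-vessel. The level class held Vcam1, Lbh, Tcea3, Susd4, a complement regulator, and Acaa1b. Their own fall enters these classes. By untreated CD31+ arrays alone Adipoq, at -1.36 against untreated osteoblasts, is intermediate. By that rule Susd4 and Acaa1b, 1.80 and 1.11 above untreated osteoblasts, are intermediate too. Acaa1b, a peroxisomal thiolase, read 7.48, 7.62, 8.07 and 8.74 without and 4.79, 4.45, 5.50 and 5.30 with G-CSF (change -2.97, SE 0.40, adjusted p = 0.00184). In osteoblasts Acaa1b changed by -0.55.

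**Figure D4:**
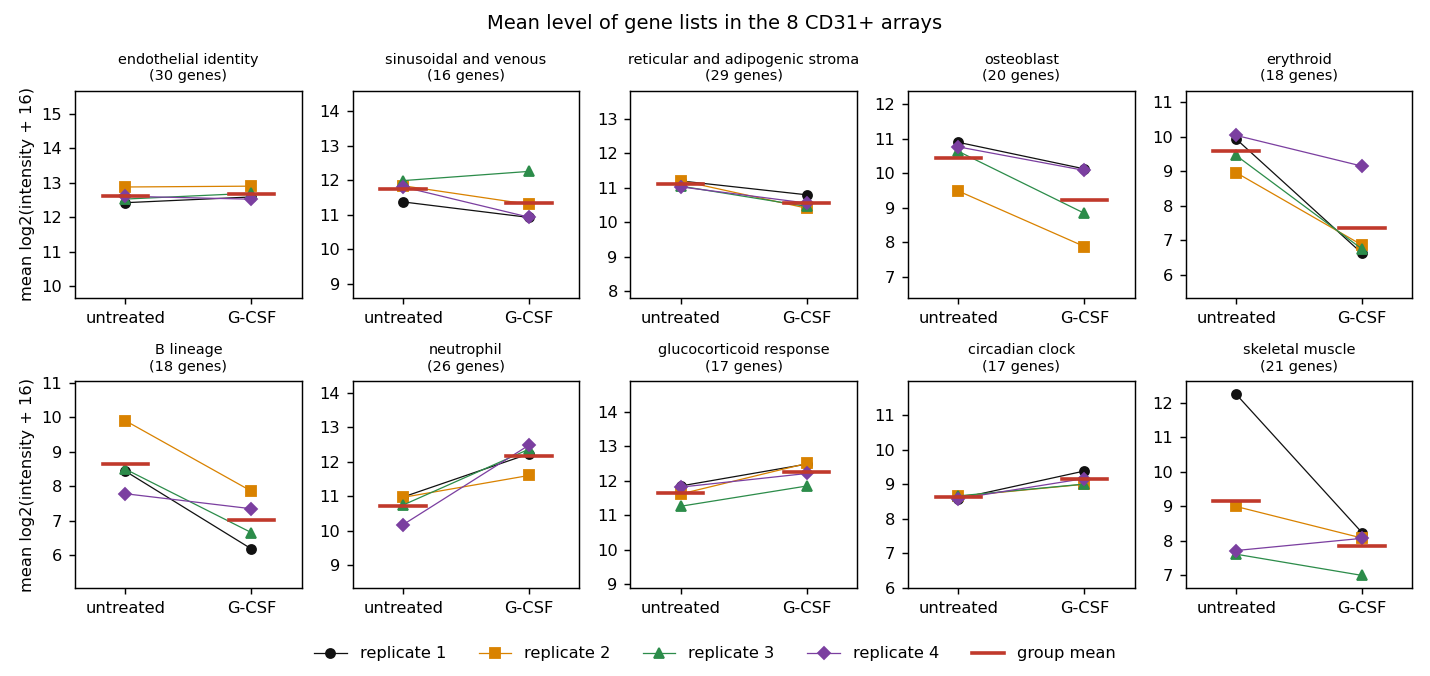
Mean log2(intensity + 16) of 10 gene lists in the 8 CD31+ arrays, untreated at left and G-CSF at right; each symbol is a replicate number, lines join arrays of the same number, red bars are group means, and every axis spans 6 units. The endothelial identity means stay between 12.43 and 12.91, the neutrophil, glucocorticoid and clock lists have higher means with G-CSF, and the erythroid mean of G-CSF replicate 4 (9.14) lies with the untreated arrays.

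The erythroid list had the lowest median of the 43 lists. Of 18 measured genes 7 fell (Ermap, Car1, Klf1, Rhd, Kel, Tspo2 and Gata1), against 1.14% of all genes. All 18 changes were negative and the median was -2.46. With the block 13 fell, against 521 of all 13453 genes. The gate had taken cells without Ter119, a marker of late erythroid cells. Ermap, a membrane protein of erythroid cells, read 11.21, 10.07, 10.74 and 11.52 without and 6.77, 7.46, 5.93 and 9.99 with G-CSF (change -3.35, SE 0.66, adjusted p = 0.0245). Klf1, the erythroid Krüppel-like factor, read 10.33, 9.61, 9.59 and 10.35 against 5.97, 6.59, 6.41 and 9.12 (change -2.95, SE 0.67, adjusted p = 0.0411). Gata1, the transcription factor of the lineage, changed by -2.09 (SE 0.46, adjusted p = 0.0399). In every one of these genes G-CSF replicate 4 was the highest of its group. The number that fell was 0 without untreated replicate 1, 3 or 4 or G-CSF replicate 2 or 3, 2 without G-CSF replicate 1, with median centring or with quantile normalisation, and 13 without G-CSF replicate 4. In osteoblasts the median of the list was -2.25 with none of the 7 called. Of the 18 genes, 8 are level, 8 intermediate and 2 non-vessel.

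B lineage genes were lower in level but not called. None of the 18 passed, 17 changes were negative, and the median was -1.74. An unadjusted p under 0.05 was found for 11 of them and for 1765 of all 13453 genes. With the block 4 fell, Vpreb1, Rag1, Blnk and Fcrla, against 521 of all genes. Vpreb1, a part of the pre-B cell receptor, read 10.69, 11.53, 10.22 and 10.58 without and 6.15, 9.52, 6.01 and 8.76 with G-CSF (change -3.14, SE 0.96, adjusted p = 0.119; 0.0154 with the block). No G-CSF array reached the untreated range, but those arrays were spread over more than 3 units. The median of 9 MHC class II genes was -1.14 with none called and 2 at unadjusted p under 0.05. Of 23 monocyte and macrophage genes 1 rose and 1 fell, against 0.453% and 1.14% of all genes. Ms4a6d, a membrane protein of macrophages, rose (3.19, SE 0.60, limma adjusted p = 0.0197), and Vcam1 fell. Ms4a6d lost its call without untreated replicate 1, 3 or 4 or G-CSF replicate 3 (up to 0.0766). Skeletal muscle genes had a median of -1.43 and no call, with 4 of 21 at unadjusted p under 0.05 and untreated replicate 1 apart as given above.

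**Figure D5:**
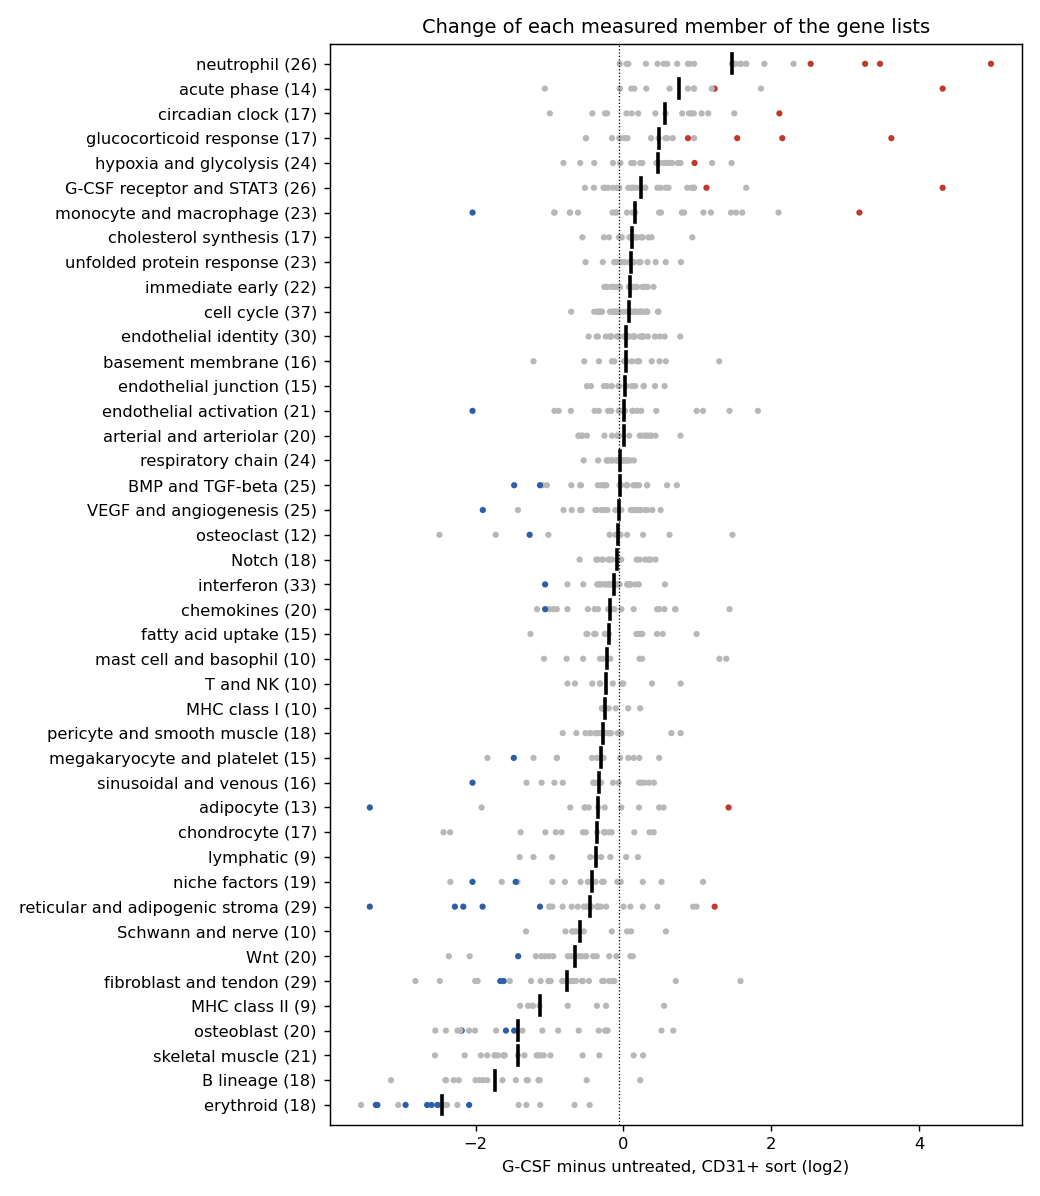
Change after G-CSF (x axis, log2) of each measured member of the 43 gene lists, with the number measured in parentheses; red points rose, blue points fell, grey points were not called, black bars are list medians, and the dotted line is the median of all genes (-0.05). The erythroid median (-2.46) lies lowest and the neutrophil median (1.47) highest, while lists of endothelial function lie near the dotted line.

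The changes were set beside those of osteoblasts, which used other arrays but the same limma fit. That fit gave each gene a common error variance for both sorts, so the calls in the sorts were not independent. In osteoblasts 31 of the 13453 genes were called, 25 that rose and 6 that fell. Of the 61 genes that rose in the CD31+ sort 51 had a positive change in osteoblasts and 15 were called there, and of the 154 that fell 127 had a negative change and 1 was called. The median change in osteoblasts was 0.91 for the former and -0.38 for the latter, against 1.57 and -1.59 in the CD31+ sort. Over all genes the median change in osteoblasts was -0.04. The share of all genes with the same sign in both sorts was not counted, so the sign counts have no reference. The 73 non-vessel genes that fell had a median of -1.67 in the CD31+ sort and of -0.32 in osteoblasts. Cpxm2, a carboxypeptidase-like protein, had the lowest adjusted p of the difference between the sorts, 0.203: it changed by -2.26 in CD31+ cells and by 1.14 in osteoblasts. No gene passed the limma test of that difference (0 of 13453, 0%), with 622 at an unadjusted p under 0.05. Without untreated osteoblast replicate 2, the array with high neutrophil and B lineage levels, 21 genes passed, 18 of them with a lower change in CD31+ cells. These included the neutrophil genes Ngp (difference -1.77), S100a8 (-1.54), Mpo (-2.29) and Lcn2 (-2.10). Leaving out the untreated osteoblast array with the highest neutrophil list mean enlarges the osteoblast change of that list. The differences of these neutrophil genes are therefore no separate test. None of the 21 was called in the CD31+ sort with all arrays. Without G-CSF CD31+ replicate 1 Cpxm2 was the 1 gene that passed (difference -3.76, adjusted p = 0.0344), and without untreated osteoblast replicate 3 Map3k6 was.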

How the data were processed

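Total RNA of sorted cells was measured on 14 Affymetrix arrays of 45101 probe sets. The deposited intensity values are linear and were made by the authors with Affymetrix Expression Console 1.1, per the submitters' processing notes; the sources used here do not give the summary algorithm. The 2% trimmed mean is 500 on every array, and no further scaling was applied in the main run. The array medians still differed between the CD31+ groups, as given in the results, and median centring was an alternative run.

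Values were turned into log2(intensity + 16). Left out were 64 control probe sets, 932 with several symbols, 9160 with none and the dimmest fraction of 0.333; of the rest, the brightest probe set stood for its gene (13453 genes). limma 3.58.1 (R 4.3.3; trend, 4 group means over 14 arrays, two-sided, Benjamini-Hochberg) gave changes, the class contrast and the difference between sorts. The script was tested on simulated data. The number of arrays limits the precision.

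The members and the 43 gene lists were chosen with earlier results of these data known. Named genes were the 15 largest non-overlapping called rises and falls, up to 10 per direction in the vessel and non-vessel classes, up to 4 called members of each list (or its 2 largest changes), and fixed genes; others were chosen after their values were seen. In both sorts every pair of same-numbered arrays correlated above 0.1 in their deviations from the group means (0.102 to 0.377). Untreated CD31+ replicate 1 and G-CSF replicate 4, of unlike number, reached 0.178. The labels state no pairing, so the replicate number served as a block only in an alternative run. Alternatives are in the closing section. Lists count only measured genes.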

Additional observations from a re-analysis of the deposited data

Results flagged for a closer look

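Among 208 sets of 4 CD31+ arrays, 20 held an array whose gap to the other 3 was large for the range of the set; chance gives about 1 in 20. Values are log2(intensity + 16), and no explanation was tested.

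In single genes, untreated replicate 2 was low for Gng4 (9.10, others 10.91 to 11.19) and Dnm1 (7.52, others 9.99 to 10.17). Untreated replicate 1 was high for Agt (9.75, others 8.86 to 8.99), and untreated replicate 3 was high for Cxcl9 (10.27, others 9.38 to 9.48). Untreated replicate 4 was low for Rab27b (6.78, others 7.63 to 7.77), Pirb (7.47, others 8.50 to 8.70) and Prok2 (4.56, others 6.58 to 6.81). G-CSF replicate 3 was low for Bnip3 (10.35, others 11.15 to 11.29) and high for Stc1 (11.35, others 9.44 to 9.51).

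In list means, untreated replicate 2 was high for arterial (11.20, others 10.44 to 10.55) and osteoclast genes (9.91, others 9.58 to 9.63), untreated replicate 3 low for cell cycle genes (9.40, others 9.53 to 9.54), and untreated replicate 4 low for monocyte and macrophage genes (8.60, others 9.34 to 9.49). G-CSF replicate 3 was low for genes of fatty acid uptake (11.08, others 11.42 to 11.48), immediate early genes (12.38, others 12.87 to 12.96), skeletal muscle genes (6.99, others 8.06 to 8.23) and Schwann and nerve genes (7.53, others 8.22 to 8.34). G-CSF replicate 4 was low for VEGF genes (11.28, others 11.43 to 11.45) and high for erythroid (9.14, others 6.61 to 6.86) and mast cell genes (10.44, others 8.31 to 8.60).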

How the results depend on the processing

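None of the 61 named genes that were called changed direction under any alternative run, but medians of some lists did, mostly those near 0; that of the chondrocyte list went from -0.35 to 0.38 without G-CSF replicate 2, and with median centring the median of all genes went from -0.05 to 0.13. Of these 61 named genes that were called, 12 kept their call without any 1 CD31+ array, 59 with the replicate block, 56 with only the CD31+ arrays fitted and 42 with median centring. The number of genes that rose and fell, 61 and 154, became 39 and 68 with quantile normalisation, 81 and 54 with median centring, 240 and 222 with only the CD31+ arrays, 139 and 521 with the replicate block, 344 and 685 with array weights, 13 and 14 at an adjusted p under 0.01, and 13 and 23 without both arrays of number 1. Leaving out 1 CD31+ array gave 13 to 65 and 15 to 323. The 9 vessel genes that rose became 15 with median centring, 46 with only the CD31+ arrays, 32 with the block, 102 with array weights, 4 at an adjusted p under 0.01, 1 with classes from untreated CD31+ arrays, 26 with a class threshold of 1, 15 with classes set without untreated osteoblast replicate 2, 4 without both arrays of number 1, and 4 to 9 without 1 array. The 73 non-vessel genes that fell became 46 with a pseudocount of 64, 36 with quantile normalisation, 27 with median centring, 204 with the block, 240 with array weights, 8 at an adjusted p under 0.01, 42 with classes from untreated CD31+ arrays, 121 with a class threshold of 1, 16 without both arrays of number 1, and 9 to 129 without 1 array. The 0 genes whose change differed between the sorts became 1 when probe sets of a gene were averaged and 0 to 21 without 1 array. Every run with fewer arrays has fewer residual degrees of freedom, and counts went up in some of these runs and down in others. The causes of the shifts were not tested. Dim genes sit near the added 16 and have compressed changes.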
